A study of Rattus norvegicus with 4 samples.

Results

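Cell cycle and mitosis genes were followed in cultured rat cortical neurons, on 4 single-channel expression arrays. The 41 genes were chosen by name, for known roles in DNA replication, in the cyclin and CDK machinery and in the mitotic spindle and its checkpoint, and 38 of them had a probe set annotated to that gene alone, among 17245 named genes in all. Rrm1, Birc5 and Anln had none there, so their expression was not analysed here. Where a gene had several probe sets the brightest was used.

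The cells came from the cortex of Sprague Dawley rats at embryonic day 18 (E18) and were grown as primary culture under standard conditions. All 4 samples were infected with pLL3.7 lentivirus, a vector for short hairpin RNA (shRNA), and RNA was taken 5 days after infection. For 2 arrays this was a control shRNA, in cells labelled wild type. For the other 2 it was PHF6shRNA-2, against the X-linked zinc finger protein gene Phf6, in cells labelled PHF6 knockdown in one field and PHF6 KO in another. Only 1 shRNA sequence against Phf6 was used, so its target and its other effects cannot be told apart. Each group holds 2 samples, labelled biological duplicates 1 and 2. One label field writes the number after "exp". The labels do not say what a number shares between the groups, nor whether duplicates are separate cultures. The p-values thus measure the spread between these arrays, which may be technical, with errors drawn in large part from all genes.

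Cortical neurons leave the cell cycle before they differentiate and do not divide again. In a culture of embryonic cortex, replication and mitosis transcripts are known to come mainly from progenitors, glial precursors and other dividing cells. The genes act in turn. D-type cyclins with Cdk4 and Cdk6, then cyclin E with Cdk2, carry a cell out of G1, and E2F factors switch on replication genes such as the Mcm helicase. Cyclin B with Cdk1 starts mitosis, and the spindle checkpoint holds it until chromosomes are attached. Many mitotic genes share a promoter element, the cell cycle genes homology region (CHR), at which the MuvB complex keeps them silent in resting cells and, with B-MYB and FOXM1, activates them in dividing cells. CCAAT boxes, bound by NF-Y, often lie close by.

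The promoters of 4 mitotic genes with the largest differences between duplicates are shown because these letters are what the genes are known to share. They are those of Mki67, Top2a, Plk1 and Nusap1, the 4 with the largest difference among genes above background on at least 2 arrays and with a promoter entry. Each runs 5′ to 3′ on the gene's strand, from 250 bases before the annotated start to 20 bases after it, in the RefSeq annotation of GRCr8. Capitals mark CHR words (TTTGAA or TTCGAA) and CCAAT words on either strand, so that TTCAAA and ATTGG are the reverse readings. The Mki67 window lies at chr1:199952574-199952843 on the minus strand, that of Top2a at chr10:84473074-84473343 on the minus strand, that of Plk1 at chr1:186147408-186147677 on the plus strand and that of Nusap1 at chr3:127057045-127057314 on the plus strand.

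Mki67: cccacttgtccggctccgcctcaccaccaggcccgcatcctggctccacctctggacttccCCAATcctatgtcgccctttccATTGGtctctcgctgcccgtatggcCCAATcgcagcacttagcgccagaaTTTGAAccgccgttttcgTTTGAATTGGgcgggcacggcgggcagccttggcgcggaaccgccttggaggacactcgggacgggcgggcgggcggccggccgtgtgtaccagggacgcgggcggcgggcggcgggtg

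Top2a: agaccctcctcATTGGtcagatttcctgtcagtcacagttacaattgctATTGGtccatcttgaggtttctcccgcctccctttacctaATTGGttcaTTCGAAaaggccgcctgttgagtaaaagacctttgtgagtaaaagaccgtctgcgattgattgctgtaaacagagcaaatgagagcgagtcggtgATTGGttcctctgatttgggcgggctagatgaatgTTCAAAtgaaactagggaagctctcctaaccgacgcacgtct

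Plk1: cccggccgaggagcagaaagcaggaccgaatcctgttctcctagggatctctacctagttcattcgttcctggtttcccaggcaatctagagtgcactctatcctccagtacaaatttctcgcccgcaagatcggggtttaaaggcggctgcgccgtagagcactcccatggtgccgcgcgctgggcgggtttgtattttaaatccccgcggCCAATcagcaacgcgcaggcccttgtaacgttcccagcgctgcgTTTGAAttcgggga

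Nusap1: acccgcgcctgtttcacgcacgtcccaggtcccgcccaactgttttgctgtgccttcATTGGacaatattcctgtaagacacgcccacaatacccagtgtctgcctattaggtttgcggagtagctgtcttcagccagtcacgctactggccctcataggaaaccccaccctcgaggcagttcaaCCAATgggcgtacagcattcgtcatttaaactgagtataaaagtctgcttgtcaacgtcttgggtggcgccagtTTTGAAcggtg

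Counted from the start, which is 0, a pair of TTTGAA words in Mki67 begin at -117 and -99, and the second shares its last base with an ATTGG word. In Top2a a TTCGAA word begins at -152 and a TTCAAA word at -22. In Plk1 and Nusap1 the single TTTGAA begins at 6 and 9. A promoter entry was found for 31 of the 41 genes (not for Mcm4, Rrm2, E2f1, Ccnd1, Ccnd2, Ccne2, Cdk6, Ccna2, Aurkb and Tpx2), with windows of 300 bases (250 before and 50 after the start). The 31 include Rrm1, Birc5 and Anln, whose expression was not analysed. A CHR word was present in 16 of the 20 mitotic genes with a window (80%), and in 19.7% of all 33469 windows. CCAAT on either strand was present in 15 of these 20 (75%), against 37.5% of all windows. Of the 8 replication genes with a window, 6 held CCAAT (75%) and 3 a CHR word (37.5%). Words of the E2F site (TTTCCCGC, TTTGGCGC, TTTGCCGC or TTTCGCGC on either strand) were present in 6 of these 8 (75%) and in 1 of the 20 mitotic genes, against 2.14% of all windows. Of the 3 G1 cyclin and CDK genes with a window, Ccne1, Cdk2 and Cdk4, none held a CHR or E2F word. These are matches of letters in a window, not measured binding.

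The arrays as a whole had median probe set intensities between 40.9 and 41.7. As background served the value that 95% of 206 odorant and pheromone receptor genes did not exceed on an array. It stood at 41.1 (control) and 39.9 (PHF6 shRNA) in duplicates 1 and at 32.5 and 32.7 in duplicates 2. All 8 neuronal markers, among them the brightest, Snap25, were above it on all 4 arrays. Phf6 itself read 31.3 to 34.4 and was above background on 1 array, so it gives no check of the group labels.

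Many of the cell cycle genes were dim, as were many of all genes. The median intensity of the 38 was 48.9 (control) and 42.8 (PHF6 shRNA) in duplicates 1, against 50.1 and 50.5 over all genes. In duplicates 2 it was 71.5 and 70.4, against 52.0 and 51.8. In the duplicates numbered 1, 24 (control) and 20 (PHF6 shRNA) of the 38 were above background, and in those numbered 2, 34 and 33 were. Of all 17245 genes, 9743 and 9945 were above it in duplicates 1, and 11069 and 11143 in duplicates 2. Aurka, Bub1b, Ttk and Ccne2 were above it on no array. The background level was itself lower in duplicates 2, so these counts moved with it, while the intensities below moved the other way. RMA can compress differences near background, so folds of dim genes may be too small.

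**Figure D1:**
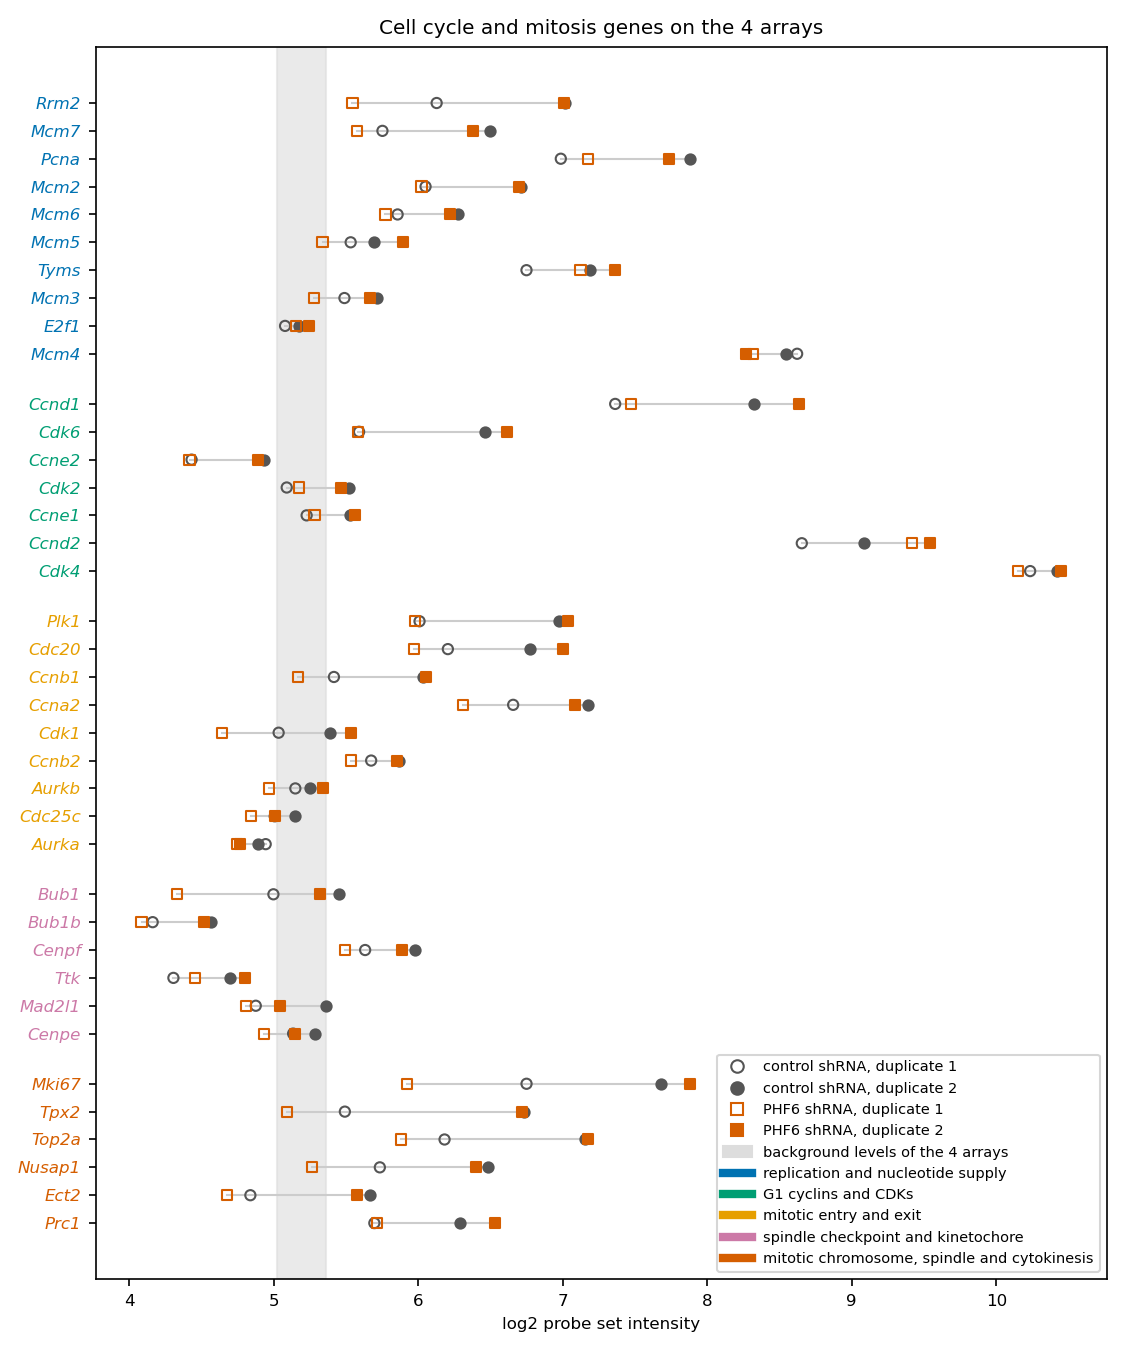
Log2 probe set intensity (x axis) of each of the 38 measured genes (rows, coloured by role) on the 4 arrays. Open symbols are duplicates 1 and filled symbols duplicates 2, circles are control shRNA and squares PHF6 shRNA, and the grey band spans the background levels of the arrays. In 35 of the 38 rows both filled symbols lie to the right of both open ones.

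The cell cycle genes differed mainly between the duplicate numbers, in control and PHF6 shRNA alike. Of the 38 genes 36 were higher in duplicate 2, with a median of 0.46 log2 units, where 48.5% of all genes were higher and the median of all genes was -0.01. In 35 of the 38 both duplicate 2 arrays lay above both duplicate 1 arrays, against 19.7% of all genes. The exceptions were Mcm4, Aurka and Ccnd2. In a limma fit with group and number as terms, 23 of the 38 passed an adjusted p of 0.05 toward higher signal in duplicate 2, where 3.17% of all genes did, and 0 passed toward lower signal, where 0.8% did. At least 2-fold higher were 6 of the 38 (Mki67, Tpx2, Rrm2, Top2a, Ccnd1 and Plk1), among 47 of all 17245 genes. In bulk RNA, fewer dividing cells and less of these transcripts per cell cannot be told apart.

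The calls rest on the group term. With the number alone in the fit no gene of the 38 passed (limma, smallest adjusted p = 0.13), and none of all 17245 did. At an unadjusted p under 0.05 were 30 of the 38, and 1887 of all genes. Of the 684 genes called in all, 79.8% were higher in duplicate 2. The share was 55.8% of the 1112 called after centring each array on its median, 58.9% of 1026 after a further quantile normalization and 67.9% of 931 with cyclic loess. Under these scalings 24, 25 and 25 of the 38 cell cycle genes passed, each toward higher signal in duplicate 2.

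Genes of the mitotic chromosome, spindle and cytokinesis were higher in duplicate 2 in all 6 measured, and all 6 passed. Their median difference was 1.04 log2 units. Mki67, which encodes the proliferation antigen Ki-67 that coats mitotic chromosomes, read 108 and 205 in control duplicates 1 and 2, and 60.7 and 236 in PHF6 shRNA duplicates 1 and 2. Both duplicate 2 arrays were the high ones, by 1.90-fold in control and 3.89-fold in PHF6 shRNA, and the difference was 1.44 ± 0.20 log2 units (SE, limma adjusted p = 0.010). Tpx2, a spindle assembly factor that activates Aurora A, read 45.0 and 106 in control and 34.2 and 105 in PHF6 shRNA. Its duplicates 2 were nearly alike between the groups, and the difference between numbers was 1.43 ± 0.10 (adjusted p = 0.0010).

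Top2a, topoisomerase II alpha, which untangles sister chromatids, read 72.6 and 142 in control and 58.9 and 145 in PHF6 shRNA, a difference of 1.13 ± 0.10 log2 units. Nusap1, which bundles spindle microtubules, read 53.3 and 89.3 in control and 38.4 and 84.6 in PHF6 shRNA. In both genes the lowest array was PHF6 shRNA duplicate 1. Ect2, the exchange factor that starts cytokinesis by activating RhoA, was above background only in duplicates 2, at 50.8 and 47.8, against 28.6 and 25.6. Prc1, which crosslinks the central spindle, was higher by 0.71 ± 0.09 (limma adjusted p = 0.0062), with its highest value, 92.7, in PHF6 shRNA duplicate 2.

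Among genes of mitotic entry and exit, 8 of 9 were higher in duplicate 2 and 5 passed (Cdk1, Ccna2, Ccnb1, Cdc20 and Plk1), with a median of 0.63 log2 units. Plk1, polo-like kinase 1, read 64.4 and 126 in control and 63.1 and 131 in PHF6 shRNA. Within a number the groups lay 1.02-fold and 1.04-fold apart, and the difference between numbers was 1.01 ± 0.08 log2 units (limma adjusted p = 0.0014). Cdc20, the activator of the anaphase-promoting complex, read 73.8 and 109 in control and 62.8 and 128 in PHF6 shRNA, a difference of 0.80 ± 0.11 (adjusted p = 0.011). Ccnb1, cyclin B1, read 42.7 and 65.6 in control and 36.0 and 66.4 in PHF6 shRNA. Its kinase partner Cdk1 read 32.8 and 42.0, and 25.0 and 46.4, and was above background only in duplicates 2.

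Not every gene of mitotic entry passed. Ccna2, cyclin A2, was higher by 0.65 ± 0.09 log2 units (limma adjusted p = 0.0098), while Ccnb2, the second B-type cyclin, stood at 51.1 and 58.5 in control and 46.3 and 57.8 in PHF6 shRNA and did not pass (0.26 ± 0.08, adjusted p = 0.12). The 2 probe sets of Ccnb2 gave 0.26 and 0.24. Aurka, Aurora A kinase, the one gene here that was not higher, read 30.8 and 29.7 in control and 26.9 and 27.3 in PHF6 shRNA, below background throughout (95% interval of the difference -0.20 to 0.17). Aurkb, the chromosomal passenger kinase, and Cdc25c, the phosphatase that activates Cdk1, differed by 0.24 and 0.16 and did not pass.

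All 6 measured genes of the spindle checkpoint and kinetochore were higher in duplicate 2 and 4 passed (Bub1, Bub1b, Ttk and Cenpf), with a median of 0.37 log2 units. Bub1, a kinase that recruits checkpoint proteins to kinetochores, read 32.0 and 43.7 in control and 20.1 and 40.0 in PHF6 shRNA. PHF6 shRNA duplicate 1 was its lowest array, and the difference between numbers was 0.72 ± 0.12 (limma adjusted p = 0.023). Cenpf, an outer kinetochore protein, read 49.6 and 63.0 in control and 45.1 and 59.2 in PHF6 shRNA, and was the one gene of the group above background on all 4 arrays. Bub1b and Ttk, the kinase Mps1, passed at 0.42 and 0.37, but on no array above background. Mad2l1, the Mad2 inhibitor of Cdc20, and Cenpe, a kinetochore kinesin, stood at 0.36 and 0.18 and did not pass.

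Of 10 replication and nucleotide supply genes 9 were higher in duplicate 2, by a median of 0.39 log2 units over the 10, and 5 passed (Mcm2, Mcm6, Mcm7, Pcna and Rrm2). Rrm2, the small subunit of ribonucleotide reductase, read 69.9 and 129 in control and 46.7 and 129 in PHF6 shRNA, a difference of 1.17 ± 0.13 (limma adjusted p = 0.0041), and its other probe set gave 0.98. Pcna, the sliding clamp of DNA polymerases, read 127 and 236 in control and 144 and 213 in PHF6 shRNA. Here control had the wider gap, 1.86-fold against 1.47-fold.

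The Mcm genes encode the 6 subunits of one helicase, yet differed among themselves. Mcm7 read 53.9 and 90.4 in control and 47.8 and 83.1 in PHF6 shRNA, Mcm2 66.3 and 105, and 65.0 and 104, and Mcm6 58.0 and 77.5, and 54.7 and 74.4. These 3 passed at 0.77, 0.67 and 0.43 log2 units. Mcm3 and Mcm5 stood at 0.31 and 0.36 and did not pass. Mcm4 read 394 and 374 in control and 319 and 309 in PHF6 shRNA, and it alone was not higher in duplicate 2 (-0.06 ± 0.08, 95% interval -0.24 to 0.12). Tyms, thymidylate synthase, differed by 0.34 (adjusted p = 0.073), and E2f1, the factor that drives many of these genes, by 0.09 ± 0.08 (adjusted p = 0.54).

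All 7 G1 cyclin and CDK genes were higher in duplicate 2, with a median of 0.36 log2 units, and 3 passed (Ccnd1, Cdk6 and Ccne2). Ccnd1, cyclin D1, read 165 and 321 in control and 178 and 397 in PHF6 shRNA, a difference of 1.06 ± 0.08 (limma adjusted p = 0.0014). Cdk6, one of its kinase partners, read 48.2 and 88.2 in control and 47.9 and 97.9 in PHF6 shRNA (0.95 ± 0.08, adjusted p = 0.0019). The other partner, Cdk4, which neurons also express, read 1205 and 1368, and 1136 and 1397, and did not pass (0.24 ± 0.08, adjusted p = 0.14). Cyclin E genes Ccne1 and Ccne2 stood at 0.29 and 0.49, the second with no array above background, and their partner Cdk2 at 0.36 (adjusted p = 0.052).

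**Figure D2:**
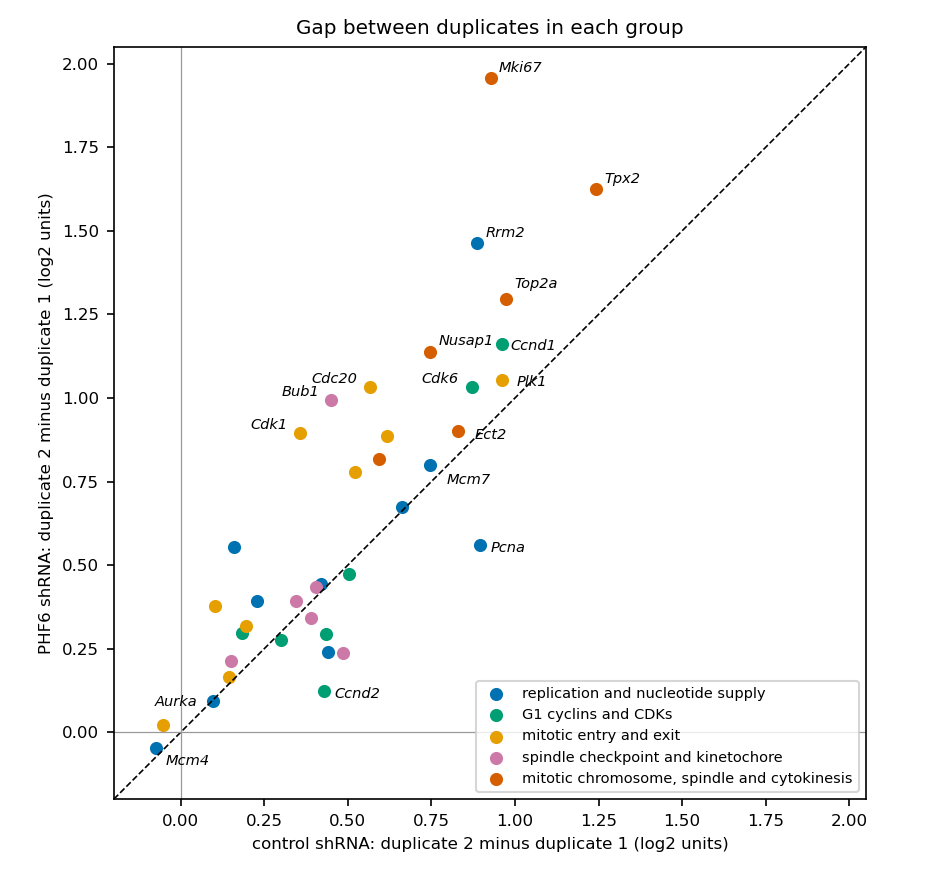
Duplicate 2 minus duplicate 1 in log2 units in control shRNA (x axis) against PHF6 shRNA (y axis), 1 point for each of the 38 genes, coloured by role. The dashed line marks equal gaps. Mki67 (0.93 in control and 1.96 in PHF6 shRNA) lies farthest above it, and 29 of the 38 points lie above.

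The gap between duplicates was wider in PHF6 shRNA than in control for 29 of the 38 genes, and for 49.1% of all genes. This held for all 9 genes of mitotic entry and exit, with a median excess of 0.26 log2 units, and for all 6 of the mitotic chromosome group, with a median of 0.35. With a further quantile normalization it held for 8 of the 9 and again for the 6. For G1 cyclins and CDKs it held for 3 of 7, with a median of -0.02. With 1 array for each group and number there are no residual degrees of freedom, so whether the gaps differ between the groups has no test.

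Read within a number, PHF6 shRNA was below control in duplicate 1 for 29 of the 38 genes, against 53.9% of all genes, with a median of -0.15 log2 units. In duplicate 2 the median was -0.02, with 17 of the 38 higher, but 0.03 after a further quantile normalization (22 higher) and 0.02 with cyclic loess (21 higher). PHF6 shRNA below control in duplicate 1 and above it in duplicate 2 was seen for 10 of the 38, and for 19.9% of all genes. All 9 genes of mitotic entry and exit were lower in duplicate 1, as deposited and under the 3 other scalings, with a median of -0.20 as deposited, and 5 of those 9 were higher in duplicate 2. Mki67 was 1.77-fold lower in duplicate 1 and 1.15-fold higher in duplicate 2. Bub1 and Rrm2 stood at -0.67 and -0.58 log2 units in duplicate 1 and at -0.13 and -0.01 in duplicate 2.

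**Figure D3:**
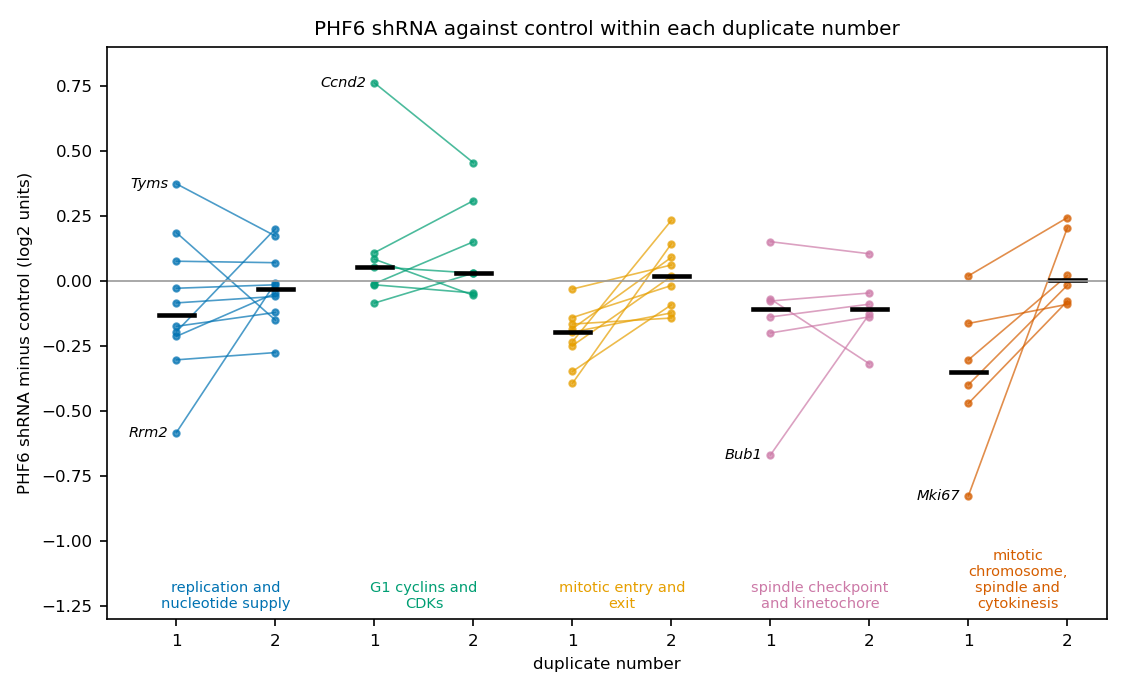
PHF6 shRNA minus control in log2 units (y axis) within duplicate 1 and within duplicate 2 (x axis), with a line for each of the 38 genes by role and black bars for medians. The median of the mitotic chromosome group is -0.35 in duplicate 1 and 0.00 in duplicate 2, while Ccnd2 is above 0 in both.

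Over both numbers, none of the 38 genes passed an adjusted p of 0.05 between PHF6 shRNA and control in the fit on group alone. With the duplicate number as a block 1 of the 38, Ccnd2, did, where 5.27% of all genes did. The median was -0.08 log2 units, with 13 higher and 25 lower, against -0.01 over all genes, of which 47.7% were higher. Among genes above background on all 4 arrays, the median was -0.02 for 20 members (9 higher). It was -0.05 for all such genes (39.8% higher). This filter drops genes that are low on a single array. Tpx2, Nusap1, Ccnb1 and Mcm3, each lower in PHF6 shRNA over both numbers, missed it only in PHF6 shRNA duplicate 1. The filtered medians therefore cannot show whether the members were lower than other genes. In the limma fit on group alone, the smallest adjusted p among the 38 was 0.29, and 0% of the 17245 genes passed. Intervals were wide for genes with a large gap between duplicates. That of Mki67 ran from -1.97 to 1.35 and that of Plk1 from -1.09 to 1.12. The sign of the median followed the arrays kept, at -0.28 when control duplicate 1 was left out and -0.30 when PHF6 shRNA duplicate 2 was, but 0.15 when control duplicate 2 was left out and 0.27 when PHF6 shRNA duplicate 1 was. In these fits 1 group is a single array, taken to vary like the other group.

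Among the 38, 2 were at an unadjusted p under 0.05, Ccnd2 toward higher and Mcm4 toward lower signal in PHF6 shRNA, where 3.28% and 7.52% of all genes were. Of all 1862 genes at that level 69.7% were lower. The share was 71.2% of 1839 genes after centring each array on its median, but 54.5% of 1820 after a further quantile normalization and 48.2% of 1809 with cyclic loess. Ccnd2, cyclin D2, a G1 cyclin of neural progenitors, read 403 and 543 in control and 683 and 744 in PHF6 shRNA. Both PHF6 shRNA arrays were above both control arrays, by 1.70-fold in duplicate 1 and 1.37-fold in duplicate 2, and the difference was 0.61 ± 0.16 log2 units (95% interval 0.22 to 1.00, limma adjusted p = 0.29). Leaving out each array gave 0.39 to 0.82. With the duplicate number also in the fit, as in the comparison of duplicates, Ccnd2 passed (limma adjusted p = 0.016), alone among the 38. In that fit 909 of all 17245 genes passed (5.27%). Ccnd1, the related cyclin, stood at 0.21 ± 0.46 with overlapping groups.

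Mcm4 was lower in both PHF6 shRNA arrays, by 1.23-fold in duplicate 1 and 1.21-fold in duplicate 2, a difference of -0.29 ± 0.08 log2 units (limma adjusted p = 0.33), and -0.33 to -0.25 when each array was left out. Ccnd2 was the 1 gene of the 38 with both PHF6 shRNA arrays above both control arrays, where 16% of all genes were, and Mcm4 and Aurka were the 2 with both below, where 21.7% of all genes were. By role, the medians of this comparison were 0.04 for G1 cyclins and CDKs, -0.05 for replication, -0.12 for mitotic entry and exit, -0.14 for the checkpoint and -0.17 for the mitotic chromosome group. In each gene of the last group the difference between groups was smaller than that between duplicates.

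A further 94 measured genes of the same pathway, from 4 lists, were compared in the same 2 ways. Between duplicate numbers 84 were higher in duplicate 2, with a median of 0.20 log2 units, where 48.5% of all genes were higher. Of the 94, 19 passed toward higher and 0 toward lower signal, where 3.17% and 0.8% of all genes did. Of 30 other genes of mitosis and cytokinesis all were higher and 13 passed. They were led by Pttg1, securin, at 1.29, Smc4, a condensin subunit, at 0.97, and Ckap2, a spindle protein, at 0.94. Zwilch, Spc25 and Ndc80, of the kinetochore, stood at 0.75, 0.66 and 0.62. The kinesins Kif4a, Kif20a and Kif11, the condensin genes Smc2 and Ncapd2, and Aspm and Dlgap5, both of the spindle, lay between 0.37 (Dlgap5) and 0.57 (Kif4a).

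Other parts of the pathway showed less. Of 33 genes of origin firing and DNA synthesis 30 were higher, with a median of 0.16 log2 units. After centring each array on its median 25 of the 33 were higher, and 6270 of all 17245 genes. As deposited 3 passed, Prim1 (0.54) and Pola1 (0.42) of the primase complex and the ligase gene Lig1 (0.45). Of 15 transcription regulators, cyclins and phosphatases 3 passed, the phosphatase gene Cdkn3 (1.01), the inhibitory kinase gene Wee1 (0.75) and Mybl2 (0.45), which encodes B-MYB. Foxm1 stood at 0.35 and did not pass. Of 16 CDK inhibitor, RB and E2F genes none passed (limma), with a median of 0.08. At an unadjusted p under 0.05, 5 of the 16 were higher, where 2209 of all 17245 genes were. The inhibitor genes Cdkn1a (p21) and Cdkn1b (p27) stood at 0.17 and -0.13.

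Between PHF6 shRNA and control none of these 94 passed (limma, smallest adjusted p = 0.23, and 9 at an unadjusted p under 0.05). Of the 9, 3 were higher and 6 lower, where 3.28% and 7.52% of all genes were, so these shares of the 94 lay near those of all genes. Fzr1, which encodes Cdh1, the anaphase-promoting complex activator that keeps G1 and postmitotic cells out of the cycle, had the smallest p. It read 216 and 240 in control and 143 and 145 in PHF6 shRNA, a difference of -0.66 ± 0.09 log2 units. The other lower ones were Orc6, of the origin recognition complex, at -0.34 ± 0.08, Tfdp2, an E2F partner, at -0.34 ± 0.11, E2f7 at -0.25 ± 0.08, the phosphatase gene Cdc25a at -0.24 ± 0.09 and Lin54, of the MuvB complex, at -0.22 ± 0.09. The higher ones were E2f5, at 0.61 ± 0.23, the repressor gene E2f6, at 0.38 ± 0.09, and Rb1, which encodes the retinoblastoma protein, at 0.29 ± 0.10. E2f5 read 189 and 301 in control and 332 and 398 in PHF6 shRNA, with no overlap between the groups.

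**Figure D4:**
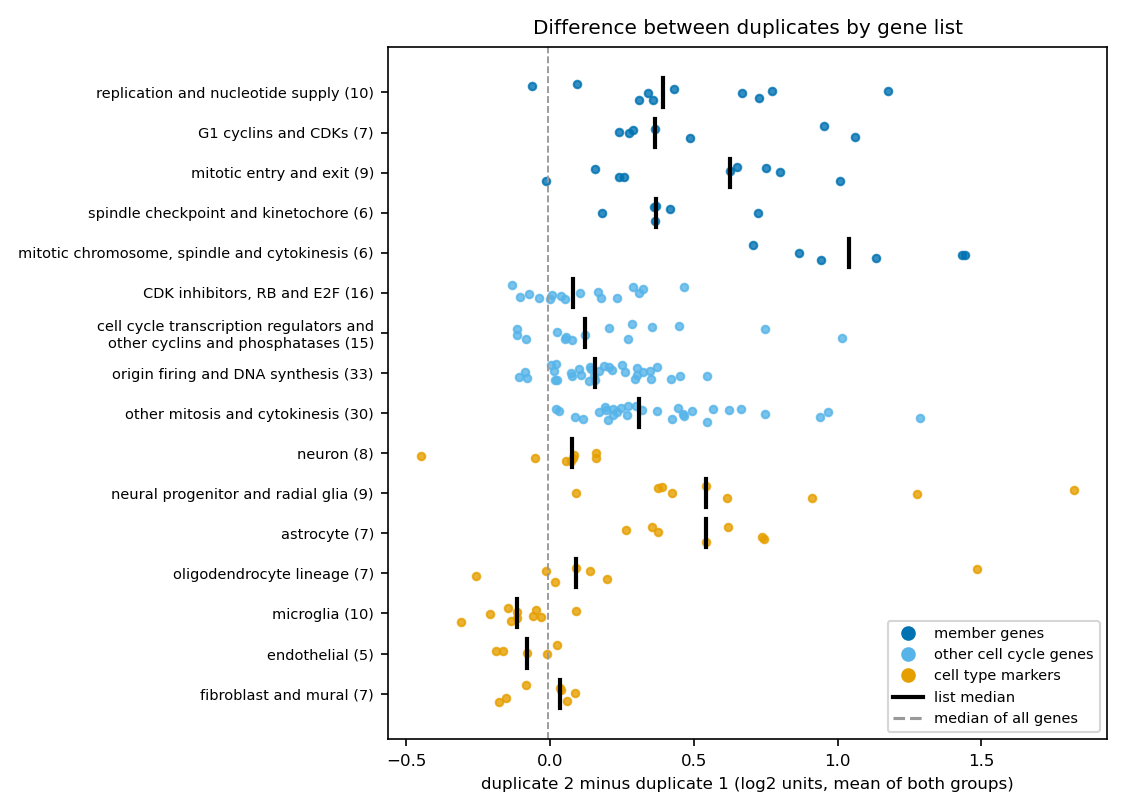
Duplicate 2 minus duplicate 1 in log2 units (x axis) for each gene of the 5 role groups, 4 lists of other cell cycle genes and 7 lists of cell type markers (rows, number measured in brackets). Black bars are list medians and the dashed line is the median of all genes. The mitotic chromosome group has the highest median, 1.04, and progenitor and astrocyte markers stand at 0.54 each.

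Markers of neural progenitors, radial glia and astrocytes moved with the duplicate number too. The medians of the other marker lists ran from -0.11 (microglia, 9 of 10 lower) to 0.09 log2 units (oligodendrocyte lineage), against -0.01 over all genes. Over all genes 48.5% were higher in duplicate 2 and 3.17% passed toward higher signal. All 9 measured markers of neural progenitors and radial glia were higher in duplicate 2, with a median of 0.54 log2 units, and 7 passed (limma). Their summed intensity was 2099 in control duplicate 1 and 4026 in control duplicate 2, and 2193 and 4789 in PHF6 shRNA. Fabp7, a fatty acid binding protein of radial glia, read 223 and 821 in control and 259 and 880 in PHF6 shRNA. Vim, vimentin, the brightest of the list, read 1252 and 2102, and 1295 and 2726. Nes, Sox2, Hes1, Notch1 and Slc1a3 also passed, at 0.42, 0.54, 0.39, 0.61 and 1.28.

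Astrocyte markers were higher in duplicate 2 in all 7 measured, with a median of 0.54 log2 units, and Gja1, Sox9 and Gfap passed. Their sums were 555 and 832 in control and 863 and 1106 in PHF6 shRNA, and the brightest was Slc1a2. Of 7 oligodendrocyte lineage markers Olig1 passed, at 49.9 and 133 in control and 38.8 and 114 in PHF6 shRNA, and the list median was 0.09, with sums of 314 and 397, and 295 and 389. The sums rose mainly through Olig1. Olig2, at 0.20, did not pass, and Pdgfra was above background on no array. Mog (-0.26) and Sox10 (-0.02) were lower in duplicate 2, and neither passed.

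The neuronal list had a median of 0.08 log2 units between numbers and sums from 10267 to 11723. In it Nefl, neurofilament light chain, passed toward lower signal in duplicate 2 (-0.45). None of 10 microglia, 5 endothelial and 7 fibroblast and mural markers passed (limma). At an unadjusted p under 0.05, 2, 1 and 0 were lower in duplicate 2, where 1310 of all 17245 genes were. The medians of these 3 lists were -0.11, -0.08 and 0.03, and their sums ran from 289 to 323, 119 to 128 and 306 to 334. Higher in duplicate 2 were 1 of 10, 1 of 5 and 4 of 7, against 48.5% of all genes. In the microglial list 6 genes, among them Aif1, Csf1r and Itgam, and in the endothelial list all 5 were above background on no array, and the brightest genes of the 3 lists by mean log2 intensity were C1qb, Cdh5 and Col1a1. Between PHF6 shRNA and control no marker passed (limma), and none of all 17245 genes did. At an unadjusted p under 0.05 were 2 neuronal genes toward lower signal, and 1 progenitor and 2 astrocyte genes toward higher. Of all genes 7.52% were lower and 3.28% higher at that level, and 47.7% were higher at any p. Astrocyte markers were higher in PHF6 shRNA in 7 of 7, by a median of 0.20, and in 6 of 7 with cyclic loess. The differences ran from 0.01 (Gfap) to 0.98 (Slc1a2), with 6 of 7 higher in duplicate 1 and 5 of 7 in duplicate 2. Slc1a2 read 140 and 210 in control and 318 and 357 in PHF6 shRNA. The progenitor list had 7 of 9 higher (median 0.09), and 7 or 8 of 9 under the other scalings. The fibroblast and mural list had 7 of 7 higher (median 0.10), but 5 or 6 of 7 under the other scalings. The neuronal list had 7 of 8 lower (median -0.16 log2 units), and 5 to 7 of 8 under the other scalings. The part of progenitor, glial or other cells in the differences of the cell cycle genes was not tested.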

How the data were processed

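Total RNA from 4 samples was labelled with biotin after a whole-transcript kit and hybridised to 1-colour arrays, per the labels' protocols. The deposited values are intensity per probe set, for which the submitters' processing notes name RMA (background correction, quantile normalization and summary). Its version and settings are not stated in the labels. They were on a linear scale, and log2 was taken. Of 29214 rows, 18644 had 1 gene symbol in the platform annotation, 962 several and 9608 none. Symbols were updated by gene identifier (18460 rows) to RefSeq on GRCr8, giving 17245 genes.

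Groups were taken from the sample titles. Linear models of limma 3.58.1 (R 4.3.3, moderated by eBayes, two-sided) were fitted over all genes, with group alone for PHF6 shRNA minus control, and with group and duplicate number for duplicate 2 minus duplicate 1, with Benjamini-Hochberg adjustment over all genes, a threshold of 0.05 and no filter. Errors are limma's SE. With group and number in the fit, the 4 arrays leave a single residual degree of freedom, the difference of the duplicate gaps between groups. The prior shared by all genes carried 6.77 degrees of freedom in that fit and 3.46 in the fit on group alone. Each SE therefore rests mostly on the prior, not on that gene's own spread. The scripts were checked on simulated data. An exact test of 2 arrays against 2 cannot give a two-sided p below 0.333.

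The genes, their roles, the other lists and the tests were chosen with earlier results of these data known. By the rule for named genes, every member was accounted for, other cell cycle genes were named where they passed or had the smallest p in their list, and of markers the brightest and those that passed. A few others were added after their values were seen. Alternatives were the number as a block, no group term, leaving out arrays, 3 scalings, the mean of probe sets, a filter on dim genes, another prior and a looser threshold.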

Additional observations from a re-analysis of the deposited data

How the results depend on the processing

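The 4 arrays limit the precision, and dim genes lie near background, where RMA compresses differences. Between PHF6 shRNA and control, no member passed under the 3 other scalings, the mean of probe sets, the filter on dim genes, the trend and robust prior, an adjusted p under 0.10, or without any 1 array. The median ran from -0.30 to 0.27 over fits without 1 array (-0.08 with all 4). With the duplicate number as a replicate block, 1 member, Ccnd2, passed (adjusted p = 0.016), and 909 genes in all (5.27%) against 0. No label states that numbers pair the arrays. Deviations from the group mean correlated between same-numbered arrays at 0.57 over all genes and 0.84 over the 38 members.

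Between duplicate numbers, 23 members passed, and 21 to 28 did under the scalings, the mean of probe sets, the filter, the other prior and the looser threshold. With no group term 0 passed. The same fit without any 1 array, added after seeing the data, leaves 1 number with a single array, so its counts are not given. With group and number, fits without 1 array left no residual degrees of freedom, and gave medians of 0.45 to 0.51. The median was 0.65 over the 33 members above background on at least 2 arrays, a filter that favours genes high in duplicate 2. Over all genes, 684 passed, against 1112 after centring, 1206 with the other prior, 1423 at the looser threshold and 0 with no group term.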
